A study of Mus musculus with 192 samples.

Results

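Repeat-rich and repeat-poor cells were the 2 ends of a ranking of single R1 mouse embryonic stem (ES) cells by how many molecules of repeat RNA were counted beside the molecules of genes. The ranking took wells with at least 53000 gene molecules, at most 30000 spike-in molecules and a summed level of the keratins Krt8 and Krt18 under 25 per 10000 gene molecules, and it left out well E02. Of 96 wells, 39 met these limits, and the 13 with the highest and the 13 with the lowest ratio of repeat to gene molecules were compared. Both groups were therefore chosen by the repeat counts themselves, so every repeat level below is a description of the selection and carries no test. The study captured single cells of 1 cell line, R1, from 1 culture on a microfluidic chip and counted RNA molecules in each. All wells, repeat-rich and repeat-poor alike, held untreated R1 cells that had been grown on irradiated mouse embryonic fibroblast feeders, and that were frozen before capture, after the feeders had been allowed to settle out and dead or apoptosing cells had been removed. Because all wells came from 1 culture they are 1 sample, spreads are spreads between wells, and no p-value was computed.

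Much of the mouse genome consists of repeats that are present in very many copies. B1 and B2 are short interspersed elements (SINEs) that RNA polymerase III can transcribe from a promoter inside the element, B1 having arisen from the 7SL RNA and B2 from a tRNA, and copies inside genes are also carried along in the transcripts of RNA polymerase II. L1 elements are the autonomous long interspersed elements, and the LTR class holds endogenous retroviruses such as IAP, ETn and MERVL. In ES cells DNA methylation and repressive histone marks, deposited with factors such as Trim28 and Dnmt1, hold many LTR elements silent, and a small number of cells at a time enter a two-cell-like state in which MERVL, its LTR MT2_Mm and the Zscan4 genes are active. The 4.5S RNA is a rodent small nuclear RNA of RNA polymerase III that is related in sequence to B1, and BC1 is a small cytoplasmic RNA that, like B2, descends from a tRNA.

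The start of BC1 is shown because it carries the kind of internal tRNA-derived promoter that B2 shares, while its level did not separate the groups as that of B2 did. These are the first 50 bases of mouse Bc1 (RefSeq, GRCm38.p6, plus strand, chr7:144914470-144914519), with a match to the A box, the first element of such internal promoters, in capitals:
Bc1: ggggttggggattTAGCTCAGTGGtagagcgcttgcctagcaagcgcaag
The A box was searched on both strands by its degenerate consensus and was present in 7354 of the 32851 promoter windows of the RefSeq table (22.4%), each running from upstream of a gene's start to just inside the gene. A match is a description of the letters only.

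Levels are given as molecules per 10000 gene molecules of the same well. Repeat-rich wells had from 10076 to 15491 repeat molecules per 10000 gene molecules, with a median of 11712, and repeat-poor wells from 4777 to 7935, with a median of 7179. The mean was 12171 ± 1805 in repeat-rich wells and 6870 ± 1009 in repeat-poor wells (SD, n = 13 wells each), a ratio of 1.77. At the edges, the lowest repeat-rich well, C09, stood at 10076 and the next well, C12, one of the wells in between, at 10059, while the highest repeat-poor well, C06, stood at 7935 and the next well above it, A07, at 8671. The boundary of the repeat-rich group therefore cut through a continuous run of wells, whereas a small gap lay above the repeat-poor group. Well A08, among the repeat-rich, was the well nearest inside the limit on gene molecules with 53975, and H08 lay just outside with 52812.

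Repeat molecules differed between the groups and gene molecules hardly did. Gene molecules numbered from 53975 to 121869 in repeat-rich wells (median 97204) and from 55334 to 145734 in repeat-poor wells (median 98748), and spike-in molecules had medians of 7741 and 7917 in the same order. Set against the spike-ins, gene molecules per spike-in molecule averaged 12.3 ± 1.84 in repeat-rich wells and 12.7 ± 2.09 in repeat-poor wells. Repeat molecules per spike-in molecule ran from 11.7 to 17.2 in repeat-rich wells and from 3.97 to 10.6 in repeat-poor wells. That scale shares its numerator with the ranking, so the lack of overlap on it is no separate result. Genes detected after thinning every well to 53975 gene molecules averaged 5675 ± 180 in repeat-rich wells and 5552 ± 353 in repeat-poor wells. Mitochondrially encoded RNA made up 8.64% to 15.8% of gene molecules in repeat-rich wells and 7.13% to 14.8% in repeat-poor wells, and the precursor ribosomal RNA Rn45s had medians of 219 and 224 in that order. These properties overlapped widely.

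Several wells stood apart. The summed level of 25 feeder fibroblast markers was 7.02 to 23.1 in repeat-rich wells, with a median of 10.8, and 8.32 to 203 in repeat-poor wells, with a median of 15.7. Its highest value, 203, belonged to D02, the well with the lowest repeat ratio of all, where the summed level of 13 ES cell markers was 23.7, the lowest of either group. The library in D02 went against its label as an ES cell, and the second highest feeder sum, 47.3, belonged to A03, the well with the next lowest repeat ratio. ES cell marker sums were 34.9 to 175.5 in repeat-rich wells (median 113.6) and 23.7 to 215 in repeat-poor wells (median 80.1). All 13 ES cell markers were detected, 9 with a higher and 4 with a lower mean in repeat-rich wells. Of the 25 feeder markers 17 had a higher mean in repeat-poor wells and 5 in repeat-rich wells, and Thy1, Postn and Lum were at 0 in both groups. Of 10 trophectoderm markers 1 had a higher and 5 a lower mean in repeat-rich wells, and Cdx2, Elf5, Hand1 and Gata3 were at 0 in both groups. Their summed level was 2.19 to 7.23 in repeat-rich wells and 2.41 to 22.03 in repeat-poor wells, the highest in H05, whose keratin level of 20.5 lay just inside the limit. Without H05 the folds of Krt8 and Krt18 were 1.03 and 1.05, against 0.73 and 0.76 with it. Of 13 primitive endoderm markers 1 had a higher and 9 a lower mean in repeat-rich wells, and Gata6, Sox17 and Sox7 were at 0 in both groups. Their summed level was 0.58 to 11.6 in repeat-rich wells and 0.79 to 7.95 in repeat-poor wells. The 11.6 was that of D01, which also had the lowest ES cell marker sum of the repeat-rich wells, 34.9. The 7.95 was that of D02. Of 7 mesendoderm markers 3 had a higher and 3 a lower mean in repeat-rich wells, with Evx1 at 0. Of 6 neural markers 4 had a higher and 1 a lower mean there, with Neurog2 at 0. Results that rest on D02 are given with and without it, and the part of RNA of these other cell types in the other results was not tested. The groups also differed in where their wells lay: 9 of 13 repeat-rich and 3 of 13 repeat-poor wells came from columns 7 to 12 of the table's well names, which hold 20 of the 39 ranked wells.

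**Figure D1:**
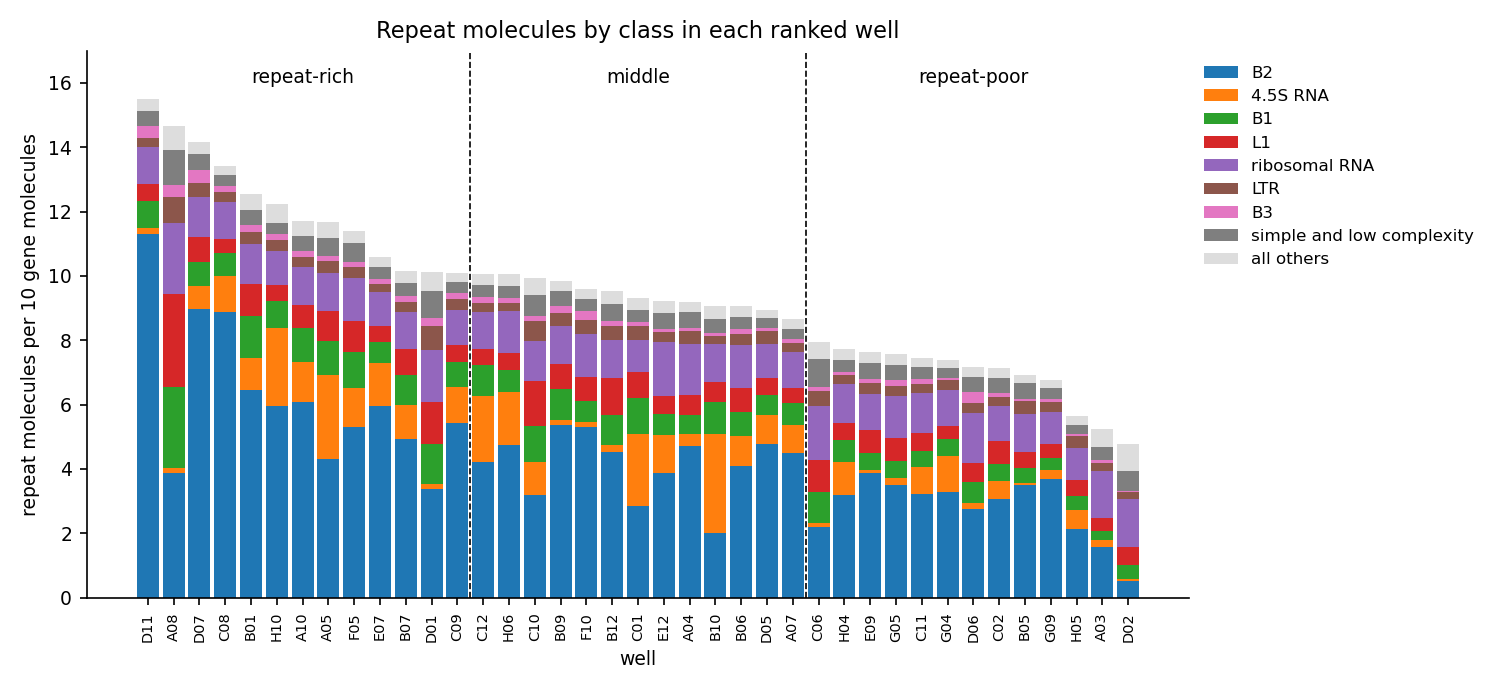
Repeat molecules per 10 gene molecules (y axis) in each of the 39 ranked wells (x axis), from the highest to the lowest ratio, split by repeat class. B2 (lowest segment) and 4.5S RNA (above it) vary most between wells, while the segment of ribosomal RNA keeps a similar height in both groups except in well A08.

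B2 elements made up most of the difference. Their summed level was 6215 ± 2257 in repeat-rich wells and 2807 ± 960 in repeat-poor wells (ratio 2.21), and 12 of 13 repeat-rich wells lay above the highest repeat-poor well. B2 accounted for 64.3% of the difference in mean repeat level between the groups, 4.5S RNA for 13.1%, B1 for 9.99%, L1 for 5.99%, B3 for 2.02% and LTR elements for 1.71%. As a share of all repeat molecules, B2 was 51.1% of the mean in repeat-rich wells and 40.9% in repeat-poor wells, whereas ribosomal RNA was 10.6% and 18.4% in the same order.

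All 3 B2 types in the table moved together. They are related in sequence, and whether reads of the same molecules were divided between them is not stated in the sources used here. Their agreement is therefore not taken as 3 separate results. B2_Mm1a had 1518, 2777 and 5130 molecules per 10000 as lowest, median and highest value in repeat-rich wells, against 218, 1430 and 2037 in repeat-poor wells. B2_Mm2 had 805, 1395 and 2851 in repeat-rich wells, against 167.7, 613 and 1069 in repeat-poor wells. For B2_Mm2, 11 repeat-rich wells lay above every repeat-poor well, and the repeat-rich well was the higher one in 98.2% of all pairs of a rich and a poor well. B2_Mm1t had 995, 1736 and 3325 in repeat-rich wells, against 136.4, 986 and 1141 in repeat-poor wells. The folds of the mean levels, computed with 0.1 added to both, were 2.19 for B2_Mm1a, 2.44 for B2_Mm2 and 2.09 for B2_Mm1t. Summed molecules of B2_Mm2 were 185274 in repeat-rich wells (exact Poisson 95% interval 184431 to 186120) and 81224 in repeat-poor wells (80666 to 81784), so counting error was far smaller than the spread between wells. The highest values of all 3 types belonged to D11, the well with the highest repeat ratio, and the lowest to D02, with a summed B2 level of 11306 in D11 and 522 in D02. Without D02 the fold of B2_Mm1a was 2.04.

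The 4.5S RNA ranged even more between wells but separated the groups less cleanly. It had 146.5, 1132 and 2605 molecules per 10000 as lowest, median and highest value in repeat-rich wells, against 49.4, 220 and 1145 in repeat-poor wells. Its mean was 1107 ± 758 in repeat-rich wells and 415 ± 379 in repeat-poor wells (fold 2.67), the rich well was higher in 79.9% of pairs, and 5 of 13 repeat-rich wells lay above all repeat-poor wells. The highest level among all ranked wells, 3066, was that of B10, one of the wells in between, where B2 stood at only 2020. The B1-related type PB1D11 followed the 4.5S RNA, with 31.9, 195 and 439 in repeat-rich wells and 12.5, 37.7 and 190.7 in repeat-poor wells. The ratio of 4.5S to PB1D11 molecules was 5.51 ± 0.56 in repeat-rich wells and 5.39 ± 0.59 in repeat-poor wells. Whether reads of the same molecules were divided between these related sequences is not stated in the sources used here, so PB1D11 is kept apart from the other B1 types where wells are compared below.

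**Figure D2:**
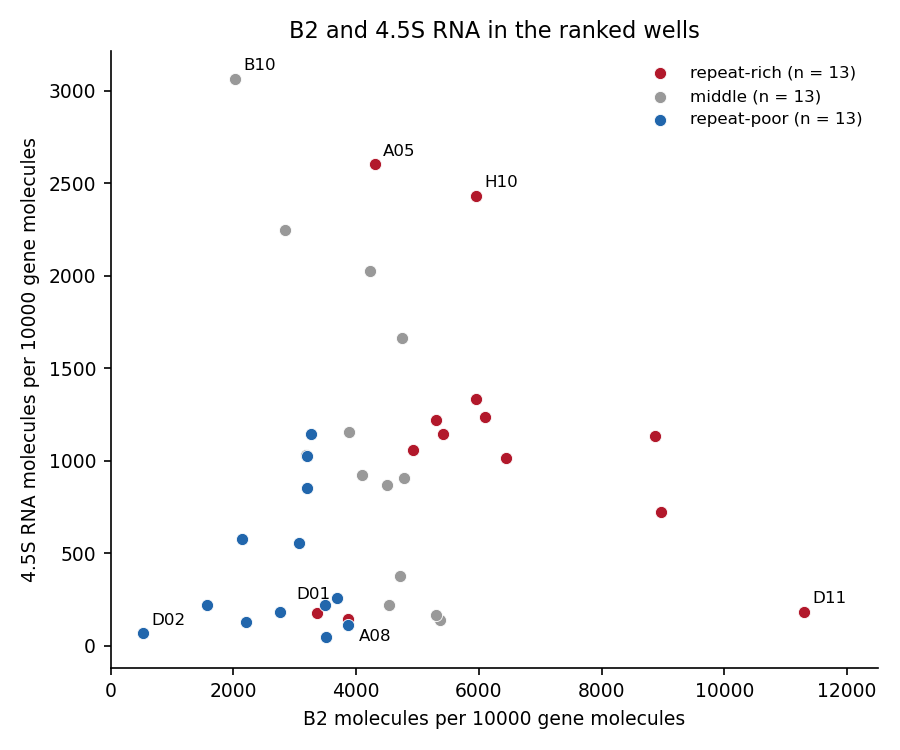
Level of B2 (x axis) and of 4.5S RNA (y axis), both in molecules per 10000 gene molecules, in the 39 ranked wells, 1 point per well, coloured by group. The repeat-rich wells include D11, with the most B2 and little 4.5S RNA, and A05 and H10, with much 4.5S RNA and B2 levels near the middle of the range.

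B2 and 4.5S RNA varied nearly independently of each other. Across the 39 ranked wells, which share the culture, the chip and the denominator of gene molecules, Spearman's rho between them was 0.24, against 0.99 for 4.5S RNA with PB1D11. B1 types other than PB1D11 ran with L1 (rho 0.77), with satellites (0.73) and with LTR elements (0.64), more than with B2 (0.33) or 4.5S RNA (-0.06). L1 had a rho of 0.54 with the mitochondrial share and of 0.48 with Rn45s, and B2 had -0.00 and -0.12. B3 lay between the groups, with 0.62 to B2 and 0.64 to the B1 types. When the wells were ranked without structural RNA (4.5S, ribosomal, tRNA and other small RNAs), the 4.5S RNA was no longer higher in the repeat-rich group (ratio 0.97), and when they were ranked by repeats other than SINEs, the ratio of B2 was 1.02. The ranking without SINEs kept 6 of the 13 repeat-rich and 9 of the 13 repeat-poor wells, and the ranking without structural RNA kept 10 and 11.

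Of 1554 repeat types in the table, 384 had a level of at least 0.5 in either group. Among them 35.9% were at least 1.5-fold higher in repeat-rich wells and 8 (2.08%) at least 1.5-fold lower, and the median log2 fold was 0.46. The rich well was higher in at least 75% of pairs for 40 types (10.4%), and in at most 25% of pairs for 0 types (0%). For no type did all repeat-rich wells lie above all repeat-poor wells. By class, 3 of 3 B2, 10 of 15 B1, 2 of 2 B3, 35 of 74 L1, 15 of 69 simple and low complexity and 3 of 4 satellite types and 32.7% of the LTR types were at least 1.5-fold higher. Of 21 small structural RNAs other than ribosomal and 4.5S RNA, 11 were at least 1.5-fold higher, among them several tRNA types, and 2 lower.

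Well A08 carried much of this breadth. It had the highest level of all 26 wells for 45.8% of the 384 types, among them 13 of 15 B1 and 53 of 74 L1 types but no B2 type. They also included 62 LTR types, a share of the LTR types tested that was below 45.8%. Without A08, 76 of 370 types (20.5%) were at least 1.5-fold higher and 11 (2.97%) at least 1.5-fold lower. A08 had the fewest gene molecules, 53975, the highest Rn45s level, 552, and the highest mitochondrial share, 15.8%, of either group, and the part of these in its repeat levels was not tested.

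**Figure D3:**
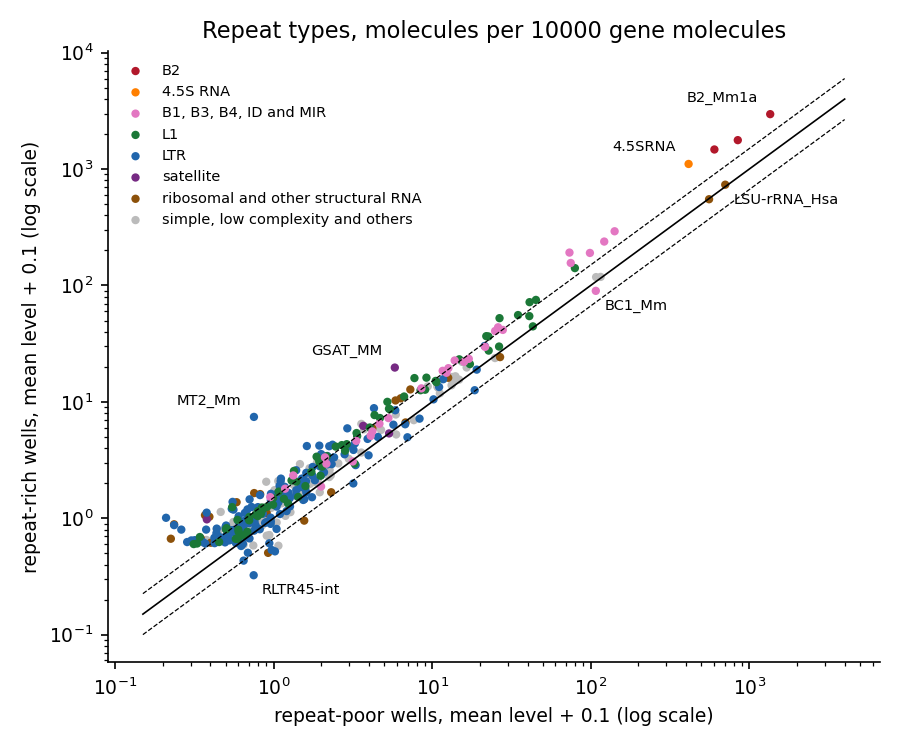
Mean level of each of the 384 repeat types in repeat-poor wells (x axis) and repeat-rich wells (y axis), with 0.1 added, on log axes, coloured by class. The solid line marks equal levels and the dashed lines 1.5-fold differences, with B2_Mm1a and 4.5S RNA above the upper one and LSU-rRNA_Hsa and BC1_Mm between them.

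B1 types differed less than B2 types as a class, with a median log2 fold of 0.66 over 15 B1 types and of 1.13 over the 3 B2 types, and at lower counts. B1_Mus1 had 122.5, 226 and 909 molecules per 10000 as lowest, median and highest value in repeat-rich wells, against 66.5, 131.5 and 324 in repeat-poor wells (fold 2.06, rich well higher in 82.8% of pairs). B1_Mus2 averaged 238 in repeat-rich wells and 121.7 in repeat-poor wells (fold 1.96), and B3 averaged 190 and 98.8 in the same order (fold 1.92). Older B1 types differed less, other than PB1D11 with a fold of 2.61. PB1D9 and B1F1 were both 1.39-fold higher, B1F 1.53-fold and PB1 1.58-fold. Without A08 the fold of B1_Mus1 was 1.70.

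The young L1 type L1Md_F2 had 50.8, 114.9 and 525 molecules per 10000 as lowest, median and highest value in repeat-rich wells, against 42.5, 68.3 and 161.5 in repeat-poor wells. The groups overlapped, with 2 repeat-rich wells above all repeat-poor wells and a fold of 1.77, or 1.37 without A08. L1Md_T and L1Md_A gave folds of 1.66 and 1.97, and 1.33 and 1.42 without A08. The L1 class as a whole had a ratio of 1.54, or 1.26 without A08.

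Among LTR elements the largest fold, 9.87, was that of MT2_Mm, the LTR that drives MERVL. It averaged 7.33 ± 19.8 in repeat-rich wells and 0.65 ± 0.67 in repeat-poor wells, with 608 molecules in repeat-rich wells (exact Poisson 95% interval 561 to 658) and 81 in repeat-poor wells (64.3 to 100.7). A08 alone stood at 72.4, the next repeat-rich well, A05, at 12.1, and no repeat-poor well was above 2.23. Without A08 the fold was 2.66. The internal part of the same element, MERVL-int, was at 5.37 in A08 and at 0.83 ± 1.43 in repeat-rich against 0.50 ± 0.65 in repeat-poor wells, with a fold of 1.53, or 0.91 without A08. A08 also held 21 molecules of Zscan4f, 17 of Zscan4b, 10 of Zscan4e and 9 of Zscan4d, genes that mark the two-cell-like state, against 3, 2, 0 and 0 in the other 12 repeat-rich wells together and 2, 0, 0 and 1 in all repeat-poor wells. These are near-identical copies whose counts cannot be told apart from one another. Of the 16 two-cell-like genes in the table only Eif1a passed the minimum level, and Dux, Tcstv1, Tcstv3 and Zscan4c were at 0 in both groups.

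Other LTR types moved in both directions on few counts. IAPEz-int, the internal part of a young intracisternal A particle, averaged 4.07 in repeat-rich wells and 1.52 in repeat-poor wells (fold 2.57), with 16.1 as its highest repeat-rich value. RLTR13B4 averaged 0.91 in repeat-rich wells and 0.11 in repeat-poor wells (fold 4.81) from 110 and 15 molecules in that order. D07 held the highest level, 5.92, and without it the fold was 2.82. MuRRS-int had a fold of 3.70 from 77 molecules in repeat-rich and 18 in repeat-poor wells, or 2.27 without A08. MMETn-int had nearly equal means (18.8 in repeat-rich wells, 19.02 in repeat-poor wells, fold 0.99). The types lowest in repeat-rich wells were RLTR45-int (0.22 in repeat-rich, 0.65 in repeat-poor wells, fold 0.43), RLTR10A (0.42 and 0.92 in that order, fold 0.51) and IAP1-MM_LTR (0.43 and 0.87, fold 0.55). The low fold of RLTR45-int rested on the repeat-poor well H04 with a level of 4.22, and without it was 0.72. That of IAP1-MM_LTR was 0.76 without C02, so neither then passed 1.5-fold.

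The major satellite of the pericentromeres, GSAT_MM, averaged 19.6 ± 30.5 in repeat-rich wells and 5.72 ± 5.86 in repeat-poor wells (fold 3.39). Its medians were 7.12 in repeat-rich and 3.80 in repeat-poor wells. The repeat-rich mean rested on A08 with 98.7 and D01 with 73.2, and without A08 the fold was 2.25.

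The abundant ribosomal RNA types were nearly level, whereas other structural RNAs had a median log2 fold of 0.62 over 21 types. The 28S ribosomal type LSU-rRNA_Hsa had 551, 690 and 1461 as lowest, median and highest value in repeat-rich wells, against 481, 669 and 1022 in repeat-poor wells, and the rich well was higher in 50.9% of pairs (fold 1.04, or 0.95 without A08). SSU-rRNA_Hsa, the 18S type, averaged 551 in repeat-rich and 558 in repeat-poor wells (fold 0.99). The small nuclear RNAs U6 and U2 had folds of 1.75 and 1.69, the small nucleolar RNA U3 1.75 and the small nuclear RNA U1 0.98. The 7SL RNA of the signal recognition particle averaged 24.2 in repeat-rich and 26.7 in repeat-poor wells (fold 0.90, or 1.07 without D02), and runs of A or T had folds of 1.03 and 1.09. BC1_Mm, whose start is printed above, had 11.4, 63.6 and 285 in repeat-rich wells, against 7.83, 54.4 and 550 in repeat-poor wells (fold 0.83). Its highest value was again that of D02, and without D02 the fold was 1.27, so its direction depends on that well. The Y RNA HY1, a small RNA of the Ro particle, averaged 0.40 in repeat-rich wells and 0.82 in repeat-poor wells (fold 0.55), and tRNA-Val-GTY averaged 0.79 and 0.14 in that order (fold 3.76, or 2.50 without B07), from 100 and 19 molecules. The simple repeat (CCTG)n had a fold of 0.54, which was 1.15 without D02.

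Genes, which the ranking used only as a total, differed little as a whole. Of 1691 genes with a level of at least 1 in either group, 86 (5.09%) were at least 1.5-fold higher in repeat-rich wells and 88 (5.20%) at least 1.5-fold lower, and the median log2 fold was 0.02. The rich well was higher in at least 75% of pairs for 50 genes (2.96%) and in at most 25% for 22 (1.30%), and no gene separated the groups completely. Without D02, 79 of 1689 genes (4.68%) were higher and 67 (3.97%) lower by that fold.

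The largest folds belonged to 4.5S RNA genes. The table lists 10 copies of Rn4.5s in a cluster on chromosome 6, the first at position 47654920 and the last at 47752751 on the minus strand (mm10), and 8 of them passed the minimum level. All 8 were 3.11- to 3.83-fold higher in repeat-rich wells, and the rich well was higher in 79.9% to 84.6% of pairs. Their summed level over the 10 copies was 21.0 in repeat-rich wells and 5.48 in repeat-poor wells. None of their molecules came from unique reads, and whether the same molecules were also counted in the 4.5S repeat row is not stated in the sources used here, so these genes give no count that is separate from that row.

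Beyond the 4.5S copies, the genes of the rule with the largest folds were Ect2 and 1500011K16Rik. Ect2, an exchange factor for small GTPases that is needed for cytokinesis (chr3:27097222-27153878, GRCm38), had 0.10, 0.90 and 2.41 molecules per 10000 as lowest, median and highest value in repeat-rich wells, against 0, 0.44 and 0.92 in repeat-poor wells. Summed over wells, its level was 1.11 in repeat-rich wells (exact Poisson 95% interval 0.93 to 1.31) and 0.40 in repeat-poor wells (0.30 to 0.53), and the fold of the mean levels was 2.43. The groups overlapped, but 6 repeat-rich wells lay above all repeat-poor wells. 1500011K16Rik averaged 1.21 ± 0.77 in repeat-rich wells and 0.45 ± 0.55 in repeat-poor wells (fold 2.39). Hist1h4d, a histone H4 gene, averaged 1.62 ± 0.92 in repeat-rich wells and 0.71 ± 0.36 in repeat-poor wells (fold 2.13, 85.2% of pairs). Chosen after its values were seen, Slc7a5, a subunit of an amino acid transporter, averaged 1.09 in repeat-rich wells and 0.43 in repeat-poor wells (fold 2.25). Rprl3, a short RNA gene of the family related to RNase P RNA, had a fold of 2.25, with none of its molecules from unique reads.

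Among genes for which the repeat-rich well was the higher one in at most 25% of pairs, Fn1 and Cdkn1a had the lowest folds. Fn1, the matrix protein fibronectin (chr1:71585520-71653200), had 0.33, 0.70 and 1.75 molecules per 10000 as lowest, median and highest value in repeat-rich wells, against 0.42, 1.85 and 16.8 in repeat-poor wells (fold 0.34). Cdkn1a, the cyclin-dependent kinase inhibitor p21 and a target of p53 (chr17:29090976-29100727), had 0.19, 0.41 and 0.77 in repeat-rich wells, against 0.08, 0.98 and 5.60 in repeat-poor wells (fold 0.36), and 8 repeat-poor wells lay above all repeat-rich wells. B2m, the light chain of MHC class I (chr2:122147686-122153083), had 0.11, 0.51 and 1.11 in repeat-rich wells, against 0.20, 1.05 and 7.77 in repeat-poor wells (fold 0.37). The highest value of all 3 was that of D02, and without it the folds were 0.54 for Fn1, 0.47 for Cdkn1a and 0.52 for B2m. The feeder marker Vim, with 21.0 in D02, went to 0.79 without that well, against 0.28 with it.

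Wdr1 and Rwdd1 depended less on D02. Wdr1, a cofactor of actin filament disassembly (chr5:38526813-38563221), had 0.11, 0.33 and 1.09 in repeat-rich wells, against 0.10, 1.11 and 3.61 in repeat-poor wells (fold 0.39, or 0.45 without D02). Rwdd1 (chr10:33996555-34019624) had 0.25, 0.91 and 1.45 in repeat-rich wells, against 0.61, 1.92 and 3.98 in repeat-poor wells, with 9 repeat-poor wells above all repeat-rich wells (fold 0.47, or 0.51 without D02). The other genes of the rule were Tsc22d1, a transcription factor induced by TGF-beta (fold 0.52), Sh3bgrl3 (0.57), the Mediator subunit Med28 (0.58), the cathepsin inhibitor Cstb (0.59) and the Arp2/3 subunit Arpc2 (0.59). The repeat-rich well was the higher one in 15.98% of pairs for Rwdd1 and in 18.3% for Wdr1 and Cstb.

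**Figure D4:**
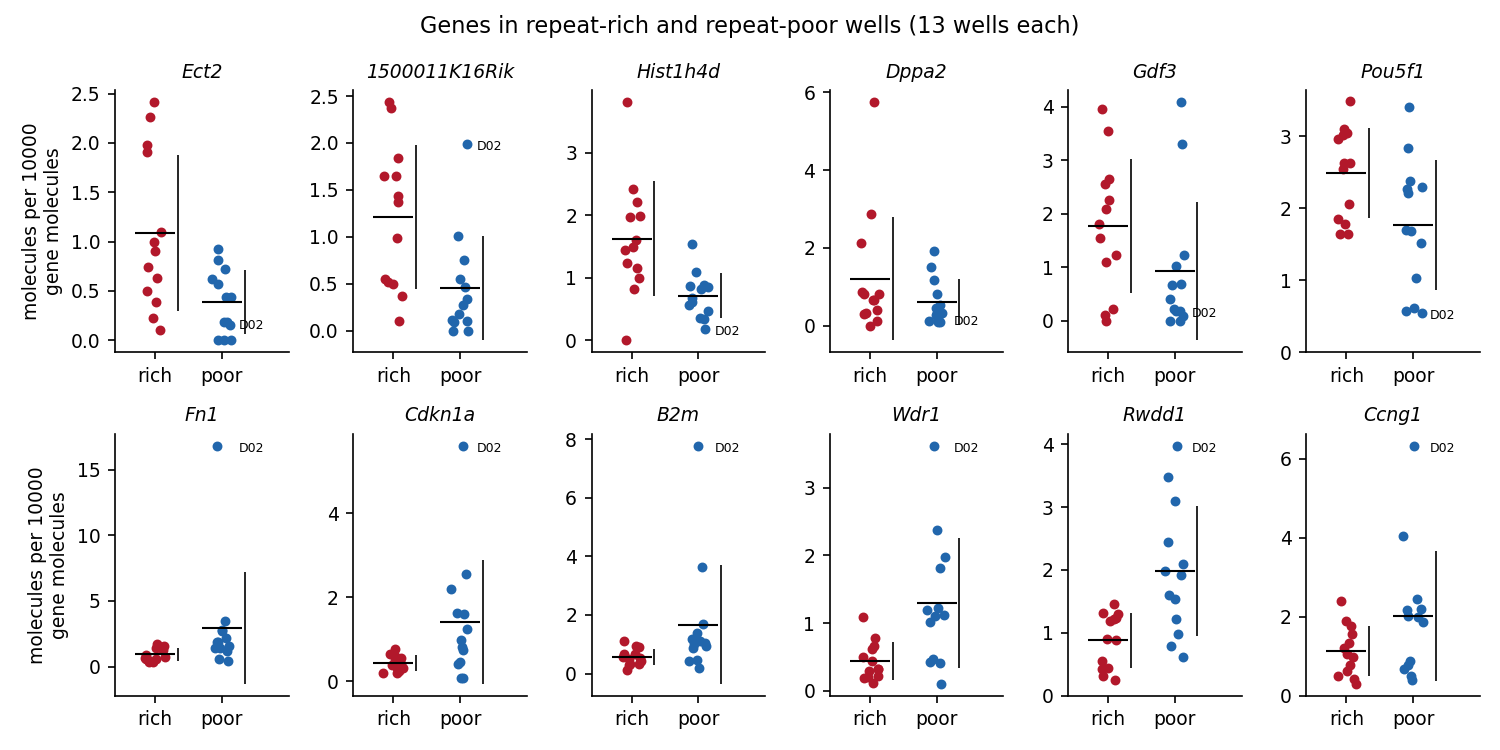
Molecules per 10000 gene molecules (y axis) of 12 genes in the 13 repeat-rich wells (left) and the 13 repeat-poor wells (right) of each panel, 1 point per well, with the mean as a horizontal line and the SD between wells as a vertical bar. D02 is marked and holds the highest value of Fn1, Cdkn1a, B2m, Wdr1, Rwdd1 and Ccng1.

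More genes of the pluripotent state had higher means in repeat-rich wells than lower ones. Of 10 pluripotency genes that passed the minimum level, 4 were at least 1.5-fold higher in repeat-rich wells and 0 lower, with a median log2 fold of 0.45, against 5.09% higher, 5.20% lower and a median of 0.02 over all genes. The list's median was 0.22 without A08 and D02 and was not positive when wells were ranked without structural RNA (-0.06). The 4 were Fbxo15 (fold 2.29), Dppa2 (1.87), Gdf3 (1.82) and Klf4 (1.69, only 38.7% of its molecules from unique reads). The fold of Fbxo15 rested on a few wells, its rich-well share of pairs being 45.3%, and it was 1.495 without A05. Without A08 the fold of Dppa2 was 1.33, and without C09 that of Klf4 was 1.49, so that Gdf3 alone of the 4 passed 1.5-fold whichever 1 well was left out. Pou5f1 (Oct4) had 1.64, 2.63 and 3.49 in repeat-rich wells, against 0.54, 1.70 and 3.40 in repeat-poor wells (fold 1.38, 73.96% of pairs), with 5 repeat-poor wells below all repeat-rich wells. Dppa5a averaged 81.7 ± 36.3 in repeat-rich and 67.7 ± 47.5 in repeat-poor wells (fold 1.21), Zfp42 (Rex1) had a fold of 1.35, and Tdgf1 and Utf1 both 1.00. Nanog and Sox2 were under the minimum level, with folds of 1.10, or 0.79 without H10, and of 0.84, or 1.04 without C11.

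Some targets of p53 had lower means in repeat-rich wells. Of 6 genes of the p53 and apoptosis list, 3 were at least 1.5-fold lower in repeat-rich wells and 0 higher, against 5.20% and 5.09% of all genes. The list's median log2 fold was -0.51, or -0.39 without D02. Ccng1, cyclin G1, averaged 1.14 ± 0.64 in repeat-rich wells and 2.02 ± 1.65 in repeat-poor wells (fold 0.58), and Mdm2, the ubiquitin ligase of p53, 1.23 ± 0.96 and 2.02 ± 2.56 in that order (fold 0.63). The highest Mdm2 level, 9.98, was that of A03, and without A03 its fold was 0.91. Bax had a fold of 0.78 and Trp53 itself 0.93, and Mcl1 was 1.49-fold higher, or 1.09-fold without A08. Without D02 the fold of Ccng1 was 0.70, so that of the 3 Cdkn1a alone stayed past 1.5-fold whichever 1 well was left out. Among 8 immediate early and stress genes 2 were at least 1.5-fold lower, Egr1 (0.49) and Dusp1 (0.65), 0 were higher and the median log2 fold was -0.26, again against 5.20% and 5.09% of all genes. Egr1 was higher in the rich well in 46.2% of pairs, its repeat-poor mean resting on B05 with 8.78, and its fold was 0.79 without B05. The chaperone genes Hsp90ab1 and Hspa5 had folds of 1.07 and 1.30.

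Genes that act on repeats or on RNA in the nucleus gave no common direction, and their counts stand against the same 5.09% higher and 5.20% lower over all genes. Of 14 repeat-silencing genes 0 were at least 1.5-fold higher and 1 was lower, Uhrf1 (fold 0.63, or 0.80 without A03), which brings Dnmt1 to newly copied DNA, and the median log2 fold was -0.00. Trim28 (0.99), Hells (1.03), Cbx3 (0.91), Dnmt1 (0.88) and Dnmt3b (1.21, or 0.95 without D01) lay near equal levels. Of 8 genes of nuclear RNA decay, 2 subunits of the RNA exosome were higher, Exosc1 (1.72) and Exosc4 (1.66), while Exosc8 had a fold of 0.91 and the list a median log2 fold of 0.22. Of 32 splicing factors 0 were higher and 2 lower, Srsf9 (0.61) and Hnrnpab (0.66), with a median of -0.01. Malat1, a nuclear noncoding RNA, averaged 82.1 in repeat-rich and 93.7 in repeat-poor wells (fold 0.88), Meg3 had a fold of 1.00 and Gas5 1.13, so none of the 3 nuclear noncoding RNAs tested passed 1.5-fold. Of 26 genes of cytosolic RNA sensing, 0 passed the minimum level, so the list could not be compared.

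Cell cycle, glycolysis and ribosomal protein genes were also close to level, with counts to be read against the same shares of all genes. Of 19 genes of the G2 and M phases 2 were higher, Kif23 (1.77, or 1.44 without A05) and Ccnb2 (1.52), with a median log2 fold of 0.15, and of 17 of the G1 and S phases 1 was higher and 1, Uhrf1, lower, with a median of 0.04. Hmgb2 and Ccnb1 had folds of 1.10 and 1.20, and Pcna 1.03. None of 12 glycolysis genes passed 1.5-fold (median 0.16, Gapdh 1.13), nor did any of 84 ribosomal protein genes (median -0.05, Rps29 0.95). Among 25 mitochondrially encoded RNAs 1 was lower, mt-Tc (0.64, or 0.77 without D02), and mt-Co1 and mt-Rnr2 had folds of 1.10 and 1.02. Among 6 histone genes Hist1h4d was higher and Hist1h2bc lower (0.25), and the low fold of Hist1h2bc rested on a value of 23.1 in D02, being 1.03 without it. Of 6 zinc finger genes 1 was lower, Zfp292 (0.63, or 0.79 without H04), and of 2 small nucleolar RNAs 1 was higher.

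The comparison was repeated within each side of the well columns. Within columns 1 to 6 (19 wells, groups of 6) the folds were 2.00 for B2_Mm2, 5.40 for 4.5S RNA, 0.33 for Cdkn1a, 0.30 for B2m and 2.88 for Ect2. Within columns 7 to 12 (20 wells, groups of 6) they were 2.29 for B2_Mm2, 0.93 for 4.5S RNA, 1.38 for Cdkn1a, 0.83 for B2m and 1.28 for Ect2. Fn1 was at 0.31 in columns 1 to 6 and 0.88 in columns 7 to 12, and Hist1h4d at 2.37 and 1.30 in that order. In the same order, Wdr1 was at 0.42 and 0.46, Rwdd1 at 0.69 and 0.49, B1_Mus1 at 2.37 and 2.23 and L1Md_F2 at 1.90 and 2.22. By fold, all of the features named here other than 4.5S RNA and Cdkn1a kept their direction in both. By pairs, Fn1, B2m and Ect2 hardly separated the groups within columns 7 to 12. The rich well was higher there in 47.2%, 44.4% and 52.8% of pairs in that order, against 22.2%, 5.56% and 86.1% within columns 1 to 6. Within columns 7 to 12 Rwdd1 stood at 19.4% of pairs and Hist1h4d at 69.4%. Wells D02 and A03 lie in columns 1 to 6. The part of well position in the comparison was not tested.

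The same ranking was then applied to 46 wells that the limit on gene molecules had left out, which share no well with the others. They held from 8774 to 52812 gene molecules (median 22592), a mitochondrial share with a median of 29.1%, and from 2640 to 24914 repeat molecules per 10000 gene molecules (median 12964). Their groups of 15 wells averaged 17309 repeat molecules per 10000 in repeat-rich wells and 9101 in repeat-poor wells, a ratio of 1.90. These groups were not matched in depth, with 28322 gene molecules on average in repeat-rich wells and 18440 in repeat-poor wells.

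In these wells L1 and B1 made up more of the difference and B2 less. L1 accounted for 35.3% of the difference, B1 for 26.2% and B2 for 15.8%, against 5.99%, 9.99% and 64.3% among the ranked wells, and 4.5S RNA for 2.59%. B2 was also a smaller part of all repeat molecules here. Averaged per well it was 11.9%, against 50.5% in repeat-rich and 39.9% in repeat-poor ranked wells. L1 elements averaged 4158 in repeat-rich and 1262 in repeat-poor wells (ratio 3.29), B1 3206 and 1053 (3.04) and B2 2219 and 925 (2.40), in the same order. L1Md_F2 had a fold of 3.91, B1_Mus1 of 3.09 and B2_Mm2 of 2.88, while LSU-rRNA_Hsa had 0.94. Of 520 repeat types that passed the minimum level there, 428 (82.3%) were at least 1.5-fold higher and 5 (0.962%) lower. Of the types higher among the ranked wells 93.5% could be compared, and 87.6% of those were higher here too, against 297 of all 366 types compared in both sets (81.1%).

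**Figure D5:**
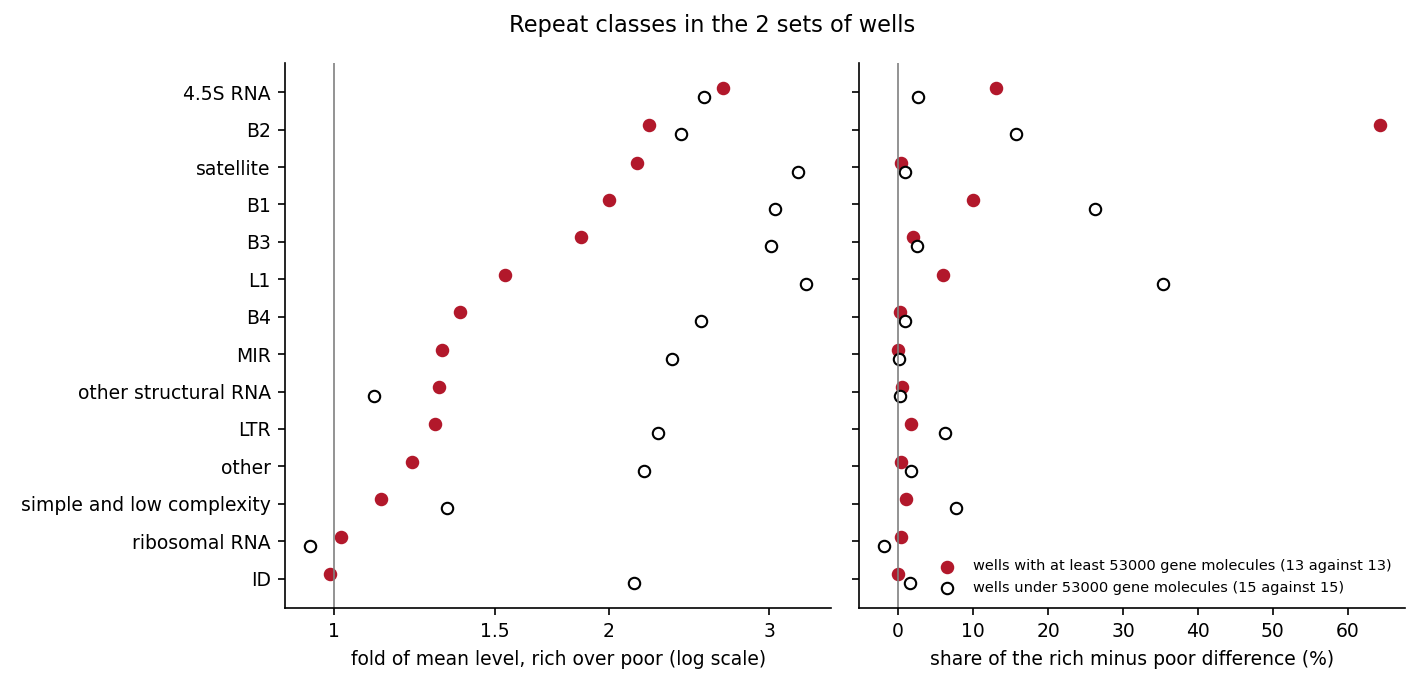
Ratio of the mean level in repeat-rich to repeat-poor wells (left, log axis) and share of the total difference in percent (right) for each repeat class, in the wells with at least 53000 gene molecules (filled, 13 against 13) and in those under it (open, 15 against 15). B2 holds 64.3% of the difference in the first set and 15.8% in the second, where L1 holds 35.3%.

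Most genes called among the ranked wells could not be compared in these wells. Among those that could, few were called in the same direction. Of 1480 genes that passed the minimum level there, 9.12% were at least 1.5-fold higher in repeat-rich wells and 83 (5.61%) lower. Leaving out the 4.5S copies, 24 of the 78 genes that were higher among the ranked wells could be compared, of which 2 (8.33%) were higher and 2 lower, against 4.46% and 5.58% of all 1255 genes compared in both sets. Of the 88 lower genes 43 could be compared, of which 4 (9.30%) were lower and 2 (4.65%) higher. Fn1 had a fold of 0.75, B2m 0.72 and Cdkn1a 0.88 in these wells, while Wdr1 had 1.43, Rwdd1 1.23, Hist1h4d 0.64 and Gdf3 0.70, on the other side of equality from their folds among the ranked wells, although that of Gdf3 was 1.01 without H12. Pou5f1 averaged 0.71 in repeat-rich and 1.25 in repeat-poor wells here, and Dppa5a 32.9 and 46.4 in the same order, with the rich well higher in 15.1% of pairs. The 4.5S RNA was higher in the repeat-rich group in both sets, with 351 molecules per 10000 in repeat-rich and 137.7 in repeat-poor wells here (fold 2.55, 72% of pairs). This fold rested on H08 with 2134 and E01 with 1012, the other 13 repeat-rich wells standing at 110.8 to 271. It was 1.62 without H08 and 1.18 without both.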

How the data were processed

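The table holds counts of molecules per feature and well, deposited by the authors, with 24264 genes, 1554 repeat types and 96 spike-ins. Per the file headers, multiply matched reads are included and repeats are grouped by type over both strands. The submitters' processing notes name Bowtie and mm10 (GRCm38) without a version. The wells, lists and tests were chosen with earlier results of these data known. Repeat classes were set by how names begin, extended after the names were seen. Levels are molecules per 10000 gene molecules. Folds are ratios of the mean well level, with 0.1 added to both, over genes with a level of at least 1 and repeat types with at least 0.5 in either group, called at 1.5-fold. Named genes were the 10 largest folds in each direction with at least 75% (or at most 25%) of pairs, and from each list the 2 highest levels and the largest fold in each direction. Named repeat types were the 10 highest levels and the 5 largest folds in each direction. Others named were chosen after their values were seen, and a few results are not reported here. No doublet caller was run. The fold calculation was tested on simulated data. Poisson intervals (95%) cover counting error only. Coordinates are those of GENCODE M21. Well positions and the wells D02 and A08 were examined after the data were seen. No paired analysis was possible because all wells belong to 1 group. Python 3.11.15, numpy 2.4.6, scipy 1.17.1, pandas and matplotlib were used.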

Additional observations from a re-analysis of the deposited data

How the results depend on the processing

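Each comparison was repeated with 23 other settings. The ratio of mean repeat levels stayed between 1.35 (ranked by repeats other than SINEs) and 2.01 (9 wells in each group). B2, B1 and B3 kept their direction as classes in every setting. Except in the ranking without SINEs, these classes are part of the ranked ratio, so their direction was largely set by the ranking. In the ranking without SINEs, B2 was at 1.02, B3 at 1.04 and B1 at 1.97. Ranked without structural RNA, the 4.5S class and the 4.5SRNA type were at 0.97, Rn4.5s_loc2 and PB1D11 at 0.99 and Kif23 at 0.95. Other values in the ranking by repeats other than SINEs were 0.97 for B2_Mm1t, 0.996 for the B3 type, 1.07 for Zfp292, 1.35 for RLTR45-int and 1.02% of types lower. Ranked by SINEs, Kif23 was at 0.79 and 4.29% of types were lower. Without the most abundant repeat type in the ranking 1.04% were lower.

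The shares of genes and types called depended on the thresholds. At 2-fold, 1.24% of genes were higher and 1.48% lower, and 9.64% of types higher and 0.26% lower. With a minimum level 3 times higher, 0.749% of genes were higher and 2.62% lower, and 40% of types higher and 0.5% lower. With no minimum level these were 8.86% and 9.45% of genes and 23.9% and 3.19% of types. With a pseudocount of 0.5, 2.25% of genes were higher and 2.19% lower, and 21.6% of types higher and 0.781% lower. With 19 wells in each group, 2.43% of genes were higher and 2.74% lower, 0.809% of types were lower and RLTR45-int was at 1.08. With 9 wells in each group, 8.22% of genes were higher and 10.3% lower, and RLTR45-int was at 1.13. Keeping high-keratin wells gave 10.3% of genes lower. Types higher made up 54.3% against a gene total without mitochondrial genes and 23.3% against the spike-in total, and thinned wells gave 1.31% lower.

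Without A08, 20.5% of types were higher and MERVL-int was at 0.91. Without D02, Hist1h2bc was at 1.03 and (CCTG)n at 1.15, and without the wells of highest and lowest ratio, D11 and D02, they were at 1.02 and 1.13. Without A08 and D02, MERVL-int was at 0.85, Hist1h2bc at 1.07 and (CCTG)n at 1.16, with 3.40% of genes lower, 19.7% of types higher and 4.04% lower. Leaving out each of the other 24 wells in turn gave 1.81% to 4.36% of types lower, the highest without D01. Leaving out wells was chosen after the data were seen.

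In the wells under 53000 gene molecules, 9.12% of genes and 82.3% of types were higher and 0.962% of types lower, the L1 class was at 3.29, the LTR class at 2.27 and the p53 list at a median log2 fold of 0.29. Folds on the other side of equality there were 0.64 for Hist1h4d, 0.65 for 1500011K16Rik, 0.70 for Gdf3, 0.73 for tRNA-Val-GTY, 0.86 for Slc7a5, 0.89 for Rprl3, 0.90 for Dppa2, 0.97 for Exosc1, 1.02 for Cstb, 1.03 for HY1 and Arpc2, 1.04 for Zfp292, 1.05 for Egr1, 1.07 for Tsc22d1, 1.18 for (CCTG)n, 1.23 for Med28 and Rwdd1, 1.29 for Ccng1, 1.30 for mt-Tc, 1.39 for Srsf9, 1.43 for Wdr1, 1.51 for Sh3bgrl3, 1.78 for Uhrf1 and 3.16 for RLTR45-int. The cause of these changes was not tested. Of 3328 values recomputed, 3235 moved by less than the spread between wells or, for shares called, by a count within 1.5 times. That spread is wide, at 3.05 for the 4.5S class ratio of 2.67, whose move to 5.26 when ranked by repeats other than SINEs lay within it. The count is therefore no measure of stability. Of the 3235 values, 234 crossed to the other side of equality, such as the pluripotency list, with a median log2 fold of -0.06 ranked without structural RNA and of -0.04 in the wells under 53000 gene molecules. Of 24 single features on the other side of equality in these wells, 11 crossed back when 1 of the 30 wells was left out.

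With 1 culture, the spread between cultures is unknown. A gene near the minimum level of 1 rests on about 100 molecules in a group, and the limit of 1.5-fold was a chosen one. Multiply matched reads and the grouping of repeats over both strands mean that a repeat type cannot be traced to a locus or a strand, and that repeats transcribed on their own and those carried in longer transcripts cannot be told apart.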
